A study of Mus musculus with 4 samples.

Results

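The aquaporins are the family of membrane channels that carry water, and in some members glycerol, across the plasma membrane. The genes described are Aqp1 to Aqp9 and Aqp11, each matched to a row of the expression table by its symbol. They make 10 rows of the 22802 in the table. The family was chosen by the FPKM values of Aqp2, which is among the genes most restricted to laminin-negative cells in these libraries. The Aqp2 difference between the populations is therefore given as a description, without a test, while the other 9 members came in by family membership.

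Classical aquaporins such as Aqp1, Aqp2, Aqp4 and Aqp5 pass mainly water, and the aquaglyceroporins (Aqp3, Aqp7 and Aqp9) also pass glycerol. Aqp11 belongs to a divergent branch that is found largely on intracellular membranes. Aqp2 is best known from the principal cells of the kidney collecting duct, where vasopressin acts through the receptor Avpr2, cAMP and protein kinase A to move Aqp2-bearing vesicles to the apical membrane. Aqp1 is abundant in kidney proximal tubule, red blood cells and many endothelia, and Aqp5 in salivary, lacrimal and lung epithelia.

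RNA had been sequenced from interstitial cells of the testis of C57BL/6J mice at postnatal day 10. All 4 libraries came from mFLE-Cre;CAG-CAT-EGFP mice, whose reporter turns on EGFP where Cre has acted. The cells had been sorted into an EGFP-expressing laminin-negative population and an EGFP-expressing laminin-positive population, with 2 libraries each. The sample labels give EGFP-positive for all 4 libraries, whereas the series' design text describes the laminin-negative cells as EGFP weak, and the labels do not spell out mFLE. Laminin is a basement membrane protein. The labels do not say whether the libraries of a population came from separate animals or whether animals were pooled. The p-values below therefore measure only the spread between these libraries, which may be technical. For each gene, that spread was partly borrowed from the other tested genes.

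Levels are FPKM, a count of fragments divided by transcript length and library depth, so that genes of different length can be compared. Summed FPKM ranged from 491475 to 548986 across the libraries, and 11794 to 12011 rows reached 1 FPKM. No fragment total is stated in the labels or headers. The lowest values of long genes with a single annotated transcript clustered at a level that, if it is worth 1 fragment, makes 1 FPKM of a 1 kb transcript worth 27.0 to 29.3 fragments. The cluster was not a clean step, so fragment numbers below are estimates.

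Of the 10 aquaporins, 4 reached 1 FPKM in at least 2 libraries, the minimum for the test, and 6 did not. The 10 rows summed to 89.2 and 78.8 FPKM in the laminin-negative libraries (replicates 1 and 2, in that order throughout). In the laminin-positive libraries the sums were 5.03 and 4.36 FPKM. Aqp2 made up 84.0% and 80.7% of the laminin-negative sums, and 43.8% and 39.6% of the laminin-positive sums. In both populations, then, most of what was measured came from a few members, and Aqp2 was the main one in laminin-negative cells.

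Among laminin-negative cells the order of mean levels was Aqp2, Aqp1, Aqp5 and Aqp11, and the last pair did not differ beyond their spread. Among laminin-positive cells Aqp11 and Aqp2 headed the order, at 2.01 ± 0.166 and 1.97 ± 0.339 FPKM (SD, n = 2), and did not differ beyond their spread. Aqp1 and Aqp5 followed in laminin-positive cells, with values that overlapped between the 2 genes. The plot of aquaporin levels by library shows that Aqp2, Aqp1 and Aqp5 were separated between the populations.

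**Figure D1:**
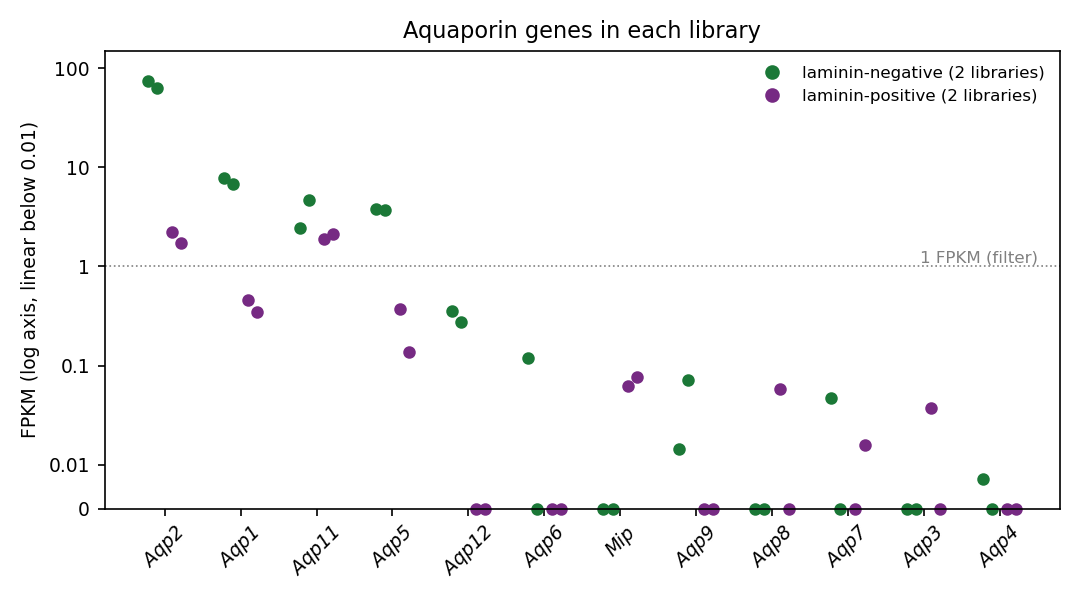
FPKM of each aquaporin gene in each library, on a log axis that is linear below 0.01, with 1 point per library. Aqp2, Aqp1 and Aqp5 are separated between the populations, Aqp11 less so, and the other 6 members stay at or below 0.119 FPKM in every library. Aqp12 and Mip, outside the 10 members, are also plotted, with Aqp12 at 0.354 and 0.277 FPKM in the laminin-negative libraries.

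Aqp2 was the most abundant aquaporin of the laminin-negative cells. Its level was 74.9 and 63.6 FPKM in the laminin-negative libraries and 2.21 and 1.73 FPKM in the laminin-positive libraries. Both laminin-negative libraries were far above both laminin-positive libraries, without overlap. The means were 69.2 ± 7.99 and 1.97 ± 0.339 FPKM (SD, n = 2 each), a ratio of 35.2. On the log2(FPKM + 1) scale used for all differences below, Aqp2 was lower in laminin-positive cells by a difference of -4.57 (SE 0.11). This placed it in position 11 of 12348 tested genes, counted from the most negative difference. In these sorted bulk samples, fewer cells of a type and less RNA per cell cannot be told apart. The estimated fragments behind the values were 3027 and 2556 in the laminin-negative libraries and 85 and 72 in the laminin-positive libraries. Aqp2 was thus also detected in the laminin-positive libraries, and which of the sorted cells carried it there was not tested.

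Aqp2 lies on the plus strand at chr15:99579055-99584547 (GRCm38, GENCODE M21). The 250 bases before its RefSeq start are shown because they are the promoter of the member with the widest separation between populations. They are at chr15:99578806-99579055 on the plus strand (RefSeq, GRCm38.p6), and 55.6% of them are G or C. Capitals mark matches to letters searched on both strands.
Aqp2 promoter: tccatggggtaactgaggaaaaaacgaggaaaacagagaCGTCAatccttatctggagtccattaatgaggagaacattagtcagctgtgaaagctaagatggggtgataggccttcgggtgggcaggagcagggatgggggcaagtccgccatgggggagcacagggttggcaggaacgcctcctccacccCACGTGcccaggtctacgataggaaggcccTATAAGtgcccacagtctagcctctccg
The first match, CGTCA at 211 bases before the start, is the reverse complement of TGACG, the short form of the cAMP response element. TGACG was found in 17.8% of 32851 mouse promoters of the same length. The second, CACGTG at 58 bases before the start, is an E-box and was found in 6.02% of promoters. The last, TATAAG at 28 bases before the start, is a TATA-like run found in 6.65%. Other motifs were searched and not found in the Aqp2 window. They were TGACGTCA, the full cAMP response element (1.55% of promoters), and CAAGGTCA, a site of the Leydig cell regulator Nr5a1 (1.33%). GGGCGG, the letters bound by Sp1 (32.7%), and TGATAA (7.94%) were not found either. TGATAA is only 1 form of the site that factors of the Gata family bind, and other forms were not searched.

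Of the 9 members with a promoter in the RefSeq table, those of Aqp2, Aqp5, Aqp6 and Aqp8 held the E-box. Aqp2, Aqp5 and Aqp6 stand in a row on chromosome 15, and their E-boxes are shown in windows of 30 bases because the 3 neighbours had unequal levels in the same cells. The windows are at chr15:99578986-99579015, chr15:99590929-99590958 and chr15:99601159-99601188, all on the plus strand, with CACGTG in capitals.
Aqp2 E-box: cctcctccacccCACGTGcccaggtctacg
Aqp5 E-box: tgccgcgtgggtCACGTGgcccgggcgggt
Aqp6 E-box: agctggaacagaCACGTGagcactctgaac
The E-box was 58, 87 and 29 bases before the RefSeq starts of Aqp2, Aqp5 and Aqp6. The Aqp5 window lies inside the gene as GENCODE annotates it. A shared match to 6 letters describes these windows and no binding was measured.

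Nearest to Aqp2 in the order of differences were genes of the steroid-making Leydig cell and of other laminin-negative cells. Just before Aqp2 came Insl3,Jak3 (a row that joins 2 genes, of which Insl3 is a Leydig cell hormone) at -5.22, Cyp17a1, an enzyme of androgen synthesis, at -4.74, and Ren1,Ren2, the renin genes, at -4.61. Just after it came Pi16, a fibroblast marker, at -4.48, Igfbp2, a binding protein of insulin-like growth factors, at -4.30, and Lhcgr, the luteinizing hormone receptor, at -4.26. Their mean levels in laminin-negative cells ran from 27.7 FPKM for Pi16 to 3951 FPKM for Insl3,Jak3, so Aqp2 at 69.2 FPKM lay between Lhcgr at 45.8 and Igfbp2 at 160 FPKM. The likeness is the log2 difference over the 4 libraries, given without a test.

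**Figure D2:**
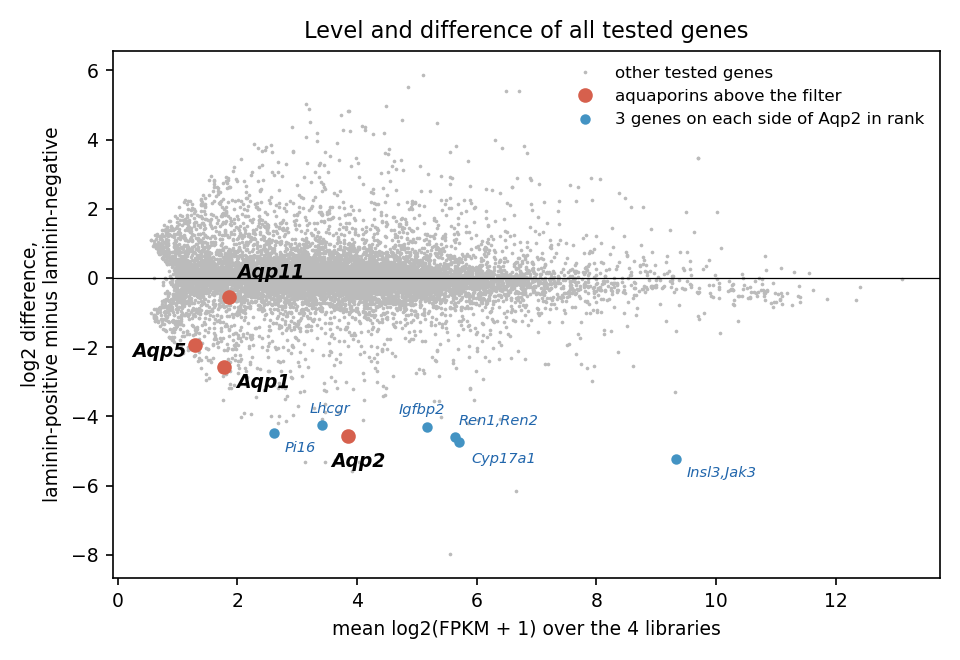
Difference between populations (laminin-positive minus laminin-negative, log2(FPKM + 1)) against mean level for the 12348 tested genes, 1 point per gene. Aqp2 lies near the lower edge at -4.57 among the 3 genes on each side of it in rank, Aqp1 and Aqp5 lie at lower levels with smaller differences, and Aqp11 lies close to the bulk of genes.

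Among all tested genes 52.9% passed limma's test at an adjusted p below 0.05, with 26.6% higher and 26.3% lower in laminin-positive cells. These were 3288 and 3245 genes, and with the libraries scaled to equal FPKM sums they were 4273 and 2371, so the balance of directions rests on the scaling. Against that background, of the 9 members other than Aqp2, 3 were called lower (Aqp1, Aqp5 and Aqp11) and 0 higher by limma, with the same counts at an unadjusted p below 0.05. Aqp1 and Aqp5 passed the minimum level only through the laminin-negative libraries, so they had to differ once they entered the test. The count is therefore not read further, and in these Results their p-values are given from the fit with no filter on low values. With 2 libraries in each population, an exact permutation test of a single gene cannot go below 0.333 (two-sided).

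Aqp1, the widely expressed water channel, was second to Aqp2 in laminin-negative cells. It was at 7.89 and 6.81 FPKM in the laminin-negative libraries and at 0.46 and 0.35 FPKM in the laminin-positive libraries. The populations did not overlap, and both laminin-positive libraries were below 1 FPKM. The means were 7.35 ± 0.763 and 0.405 ± 0.0779 FPKM (SD, n = 2 each), a ratio of 18.1. The difference was -2.57 (SE 0.12), in position 113 from the most negative. In the fit with no filter, where Aqp1 did not need a high level to be tested, the limma adjusted p was 1.28e-04. About 590 and 506 fragments stood behind the laminin-negative values and 33 and 27 behind the laminin-positive ones. Under the 14 alternative settings the difference ran from -4.16 to -2.48.

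Aqp5, the epithelial relative of Aqp2, had the same direction at a lower level. Its values were 3.81 and 3.71 FPKM in laminin-negative cells and 0.376 and 0.138 FPKM in laminin-positive cells. Again the populations did not overlap. The means were 3.76 ± 0.0703 and 0.257 ± 0.168 FPKM (SD, n = 2 each), a ratio of 14.6. The difference was -1.93 (SE 0.13), in position 239 from the most negative, and the limma adjusted p in the fit with no filter was 3.42e-04. The laminin-positive values rest on an estimated 18 and 7 fragments, against 195 and 189 in laminin-negative cells, so the ratio is loosely fixed. Under the alternatives the difference ran from -3.98 to -1.79.

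Aqp11, the intracellular aquaporin, had the smallest difference of the 4 tested members. It was at 2.42 and 4.63 FPKM in laminin-negative cells and at 1.89 and 2.13 FPKM in laminin-positive cells. The second laminin-negative library was high, and the first was close to the laminin-positive libraries though still above them. The means were 3.53 ± 1.56 and 2.01 ± 0.166 FPKM (SD, n = 2 each). The difference of -0.55 (SE 0.20) had a limma adjusted p of 0.0372. Without the second laminin-negative library the difference was -0.19 with an adjusted p of 0.279, and without the first laminin-positive library the adjusted p was 0.0609. The call was lost under 7 of the 14 alternatives, with adjusted p-values over all of them from 7.16e-04 to 0.371.

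The other members were at or near 0 in every library. The aquaglyceroporins were Aqp3, at 0.0377 FPKM in the first laminin-positive library and listed at 0 elsewhere, Aqp7, at 0.047 and 0.0157 FPKM in 1 library of each population, and Aqp9, at 0.0145 and 0.0717 FPKM in laminin-negative cells and listed at 0 in laminin-positive cells. Aqp4, the brain water channel, was at 0.00681 FPKM in 1 laminin-negative library and listed at 0 elsewhere. Aqp8 was at 0.0573 FPKM in 1 laminin-positive library and listed at 0 elsewhere. Aqp6, the vesicle channel next to Aqp5, was at 0.119 FPKM, or about 7 fragments, in the first laminin-negative library and listed at 0 elsewhere. At these levels no difference between the populations could be detected. Outside the 10 members, the family's Aqp12 was at 0.354 and 0.277 FPKM in laminin-negative cells and listed at 0 in laminin-positive cells, and Mip was at 0.0627 and 0.0769 FPKM in laminin-positive cells and listed at 0 in laminin-negative cells.

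Most aquaporins carry a pair of short loops with the residues Asn-Pro-Ala, the NPA boxes, which meet in the middle of the pore. Their coding bases are shown for the 4 tested members, as 27 bases from GENCODE M21 transcripts with the codons of the box in capitals, because they are the best known mark of the family. A search of the Aqp7 transcript found 0 Asn-Pro-Ala boxes and that of Aqp11 found 1, so the boxes are not shared by all members.
Aqp2 first box: gcccacatcAACCCTGCTgtgactgtg
Aqp2 second box: tgctccatgAATCCAGCCcgctccctg
Aqp5 first box: ggccacatcAATCCGGCCattactctg
Aqp5 second box: tgttccatgAACCCAGCCcgatctttc
Aqp1 first box: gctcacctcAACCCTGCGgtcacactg
Aqp1 second box: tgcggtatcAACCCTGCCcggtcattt
Aqp11 first box: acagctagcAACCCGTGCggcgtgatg
Aqp11 second box: gcattgtttAACCCAGCGctggcactt
The boxes begin at codons 68 and 184 of Aqp2, 69 and 185 of Aqp5, 76 and 192 of Aqp1, and 99 and 216 of Aqp11. The first box of Aqp11 codes for Asn-Pro-Cys in place of Asn-Pro-Ala, a known mark of its divergent branch. Coding sequences of Aqp2 and Aqp5 were 70.1% identical, the highest of all pairs of the 10 members. Aqp2 and Aqp6 were 67.8% identical, Aqp5 and Aqp6 67.3%, and Aqp1 and Aqp2 64.8%. The longest run of identical bases between transcripts was 17 for Aqp2 and Aqp5 and 23 for Aqp5 and Aqp6, the longest of all pairs. No other annotated gene overlaps Aqp1, Aqp2, Aqp5 or Aqp11.

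Aqp2, Aqp5 and Aqp6 follow each other on the plus strand of chromosome 15. Aqp5 (chr15:99590782-99594829) begins 6.2 kb after the end of Aqp2, and Aqp6 (chr15:99601400-99605477) begins 6.6 kb after the end of Aqp5. In laminin-negative cells the 3 neighbours stood at 69.2, 3.76 and at most 0.119 FPKM, so they covered a wide range of levels. Aqp2 and Aqp5 were both lower in laminin-positive cells, while for Aqp6 no difference could be detected.

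Genes around the cluster that passed the minimum level behaved unevenly. Bcdin3d, 104.3 kb before Aqp2, had a difference of -0.12 (limma adjusted p = 0.389), and Racgap1, 35.9 kb after Aqp2, had 0.14 (adjusted p = 0.293). Without the first laminin-negative library Racgap1 had 0.28 (adjusted p = 0.0413), and without the second -0.00 (adjusted p = 0.992). Nckap5l, 121.3 kb before Aqp2, was lower in laminin-positive cells at -0.70 (adjusted p = 2.54e-04, and 0.115 with no variance shared across genes). Asic1, an acid-sensing ion channel gene 75.5 kb after Aqp5, was at 2.08 and 2.0 FPKM in laminin-negative cells. In laminin-positive cells it was at 0.351 and 0.44 FPKM, a difference of -1.13. Asic1 passed the minimum only through the laminin-negative libraries, so it had to differ once tested and its p-value is left out. Faim2, between Bcdin3d and Aqp2, was below the minimum, at 0.757 and 0.701 FPKM against 0.0218 and 0.0143 FPKM. The ratio of its means, 40.5, was of the size of the Aqp2 ratio of 35.2, but at levels under 1 FPKM. Among the tested neighbours other than Aqp5, no difference was larger in size than that of Asic1.

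**Figure D3:**
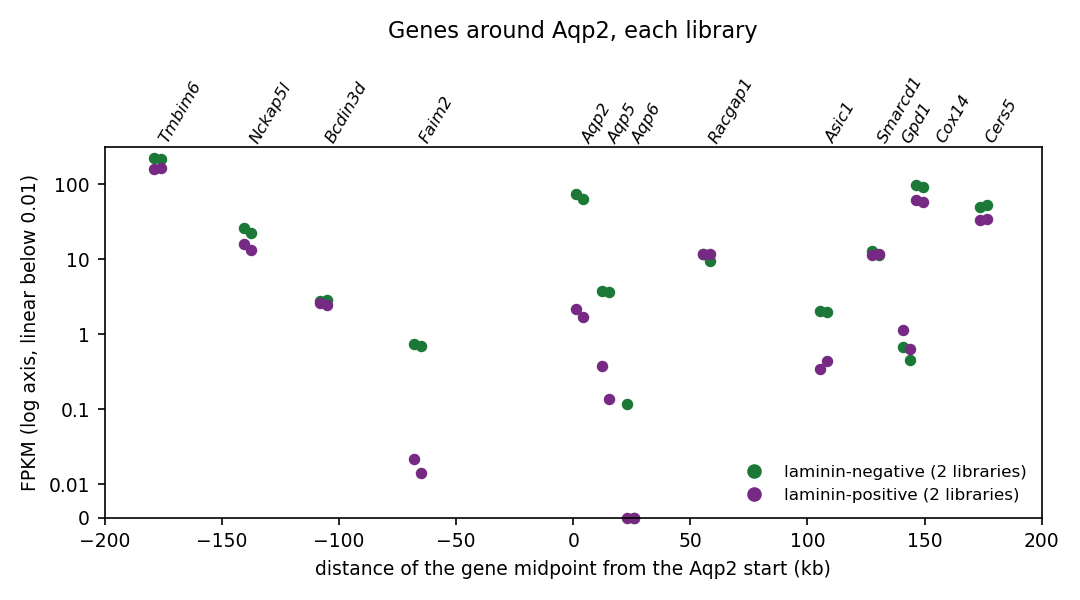
FPKM of the protein-coding genes within 200 kb of the Aqp2 start, on a log axis that is linear below 0.01, against the distance of each gene's midpoint from that start, 1 point per library. Aqp2 and Aqp5 are separated between the populations, Racgap1 and Bcdin3d are not far apart, and Faim2 and Asic1 are higher in laminin-negative cells at low levels.

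Aqp1 and Aqp11 stand alone. Aqp1 lies at chr6:55336432-55348555 on the plus strand, with Adcyap1r1, the receptor of the peptide PACAP, 103.4 kb after it as the nearest tested gene on that side. Adcyap1r1 was also lower in laminin-positive cells, at -0.96 (limma adjusted p = 2.64e-05), while Gars, 256.9 kb before Aqp1, had a difference of -0.01 (adjusted p = 0.928). Ggct, the next tested gene, 343.5 kb before Aqp1, was at -0.37 (adjusted p = 0.0282) and Lsm5, the next tested gene after Adcyap1r1 and 1352.5 kb from Aqp1, at 0.30 (adjusted p = 0.0191). Both calls were lost without the first laminin-negative library (adjusted p = 0.145 and 0.104) and without the second laminin-positive library (0.246 and 0.13). Aqp11 lies at chr7:97724006-97738289 on the minus strand. Its 4 nearest tested neighbours, Clns1a (0.02, adjusted p = 0.878), Rsf1 (0.13, 0.342), Pak1 (-0.03, 0.829) and Myo7a (0.10, 0.498), did not pass limma's test.

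The vasopressin and cAMP route, which governs Aqp2 in kidney, was present in part. Of 21 tested genes of the 23 in the table, 11 were higher in laminin-positive cells, 6 lower and 4 not called, with a median difference of 0.29 against 0.01 over all tested genes. The counts of this and the next 5 lists are to be read beside the 26.6% higher and 26.3% lower among all tested genes. Some genes in these lists passed the minimum only through the population where they were higher, so they had to differ once tested. Avpr2, the kidney vasopressin receptor, was at 0.0244 and 0.0661 FPKM in laminin-negative cells and at 0.0362 FPKM and listed at 0 in laminin-positive cells. In the cells with the most Aqp2, the receptor that governs it in kidney was thus near 0. Avpr1a, the vasopressin receptor that signals through calcium, was at 28.6 and 27.9 FPKM in laminin-negative cells and at 4.12 and 4.13 FPKM in laminin-positive cells. Like Aqp2 it was lower in laminin-positive cells, with a difference of -2.51 (SE 0.09, limma adjusted p = 2.74e-09). With no variance shared across genes the adjusted p of Avpr1a was 0.0147.

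Enzymes that make and break cAMP differed in both directions. Adcy5, an adenylyl cyclase, was at 16.3 and 16.1 FPKM against 132 and 126 FPKM in laminin-positive cells (2.92, limma adjusted p = 2.84e-10). With no variance shared across genes the adjusted p of Adcy5 was 0.0153. Pde4b, a phosphodiesterase that degrades cAMP, was at 0.993 and 0.984 FPKM against 19.5 and 19.4 FPKM (3.36, limma adjusted p = 3.08e-05 in the fit with no filter). It passed the minimum only through the laminin-positive libraries. Prkar2b, a regulatory subunit of protein kinase A, was lower in laminin-positive cells at -1.97 (adjusted p = 1.50e-08). Adcy6, the cyclase most tied to Aqp2 in kidney, had a difference of 0.13 (adjusted p = 0.325), and Prkaca, the catalytic subunit of protein kinase A, of -0.10 (adjusted p = 0.289). The Prkaca difference was 0.02 with equal FPKM sums, and that of Adcy6 was 0.31 (adjusted p = 0.016) without the first laminin-negative library and -0.04 (adjusted p = 0.699) without the second.

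Genes of Aqp2 vesicle movement showed no common direction. Of 23 tested, 9 were higher, 5 lower and 9 not called, with a median of -0.01. The number called higher was 5 without the second laminin-positive library. Anxa2, a membrane-linking annexin, was lower in laminin-positive cells at -1.49, from 469 to 166 FPKM, and Ezr, the membrane to actin linker ezrin, at -0.81, from 7.89 to 4.08 FPKM. Sipa1l1, a regulator of the small GTPase Rap, was higher at 1.70, from 1.65 to 7.64 FPKM, and Cav1, the caveola protein, at 0.71, from 172 to 282 FPKM. All 4 passed limma's test.

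Kidney principal cell genes were mostly below the minimum, with 7 of 18 tested. Of the 7, 4 were higher, 3 lower and 0 not called, and the median was 1.40. Some of the 7, among them Ptger3 and Tfcp2l1, passed the minimum only through the population where they were higher. They had to differ once they entered the test, so the counts of this list are not read further. Hsd11b2, which inactivates glucocorticoids, was at 9.66 and 6.39 FPKM against 64.6 and 58.5 FPKM in laminin-positive cells, the opposite direction to Aqp2 (2.81). Scnn1b, a subunit of the epithelial sodium channel, was also higher (2.26), while its partner Scnn1g was listed at 0 in 3 libraries and at 0.0115 FPKM in the last. Ptger3, a prostaglandin E2 receptor, and Tfcp2l1, a transcription factor of the collecting duct, were lower in laminin-positive cells at -1.10 and -0.97. The Ptger3 call was lost with no variance shared across genes (adjusted p = 0.0685), and with equal FPKM sums Ptger3 was not tested and the list had 4 genes higher and 1 lower. Tfcp2l1 had 1.30 and 1.12 FPKM against 0.122 and 0.131 FPKM, without overlap. Kcnj1, a potassium channel gene, and Fxyd4 were listed at 0 in every library.

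**Figure D4:**
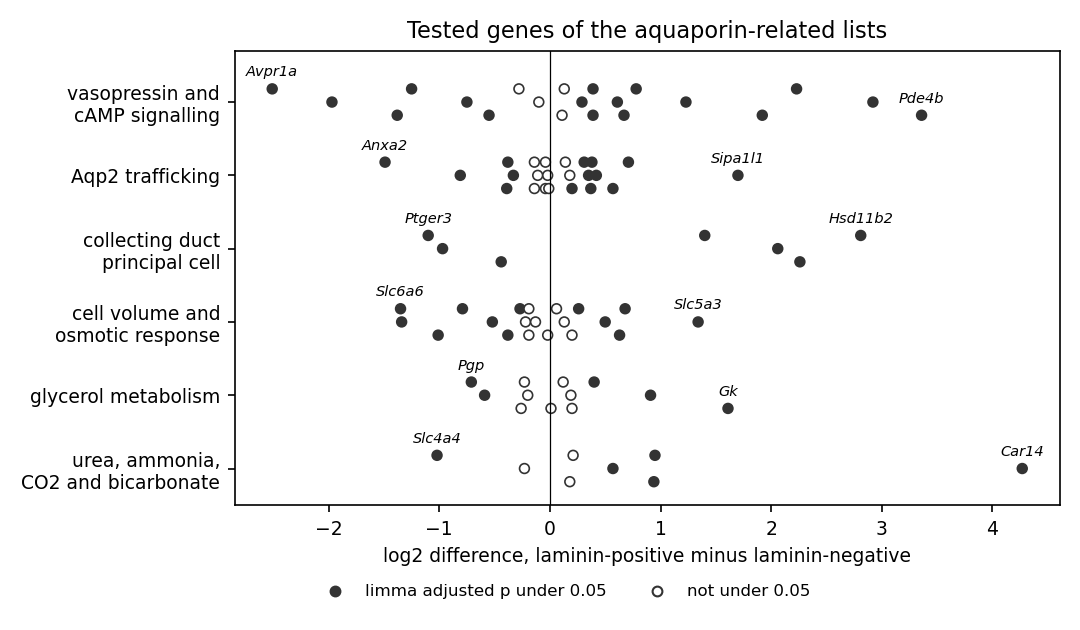
Difference between populations (laminin-positive minus laminin-negative, log2(FPKM + 1)) of each tested gene in 6 lists of genes tied to aquaporin function, 1 point per gene, filled where limma's adjusted p was below 0.05. Each list has called genes on both sides of 0, and the widest differences are Avpr1a at -2.51 and Car14 at 4.27.

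For what aquaporins carry, the accompanying genes were mixed too. Of 20 tested genes of cell volume and osmotic response, 5 were higher, 7 lower and 8 not called (median -0.16). Slc6a6, the taurine transporter, and Lrrc8c, a subunit of the volume-regulated anion channel, were lower in laminin-positive cells along with Aqp2, at -1.35 and -1.34. The row Mrps6,Slc5a3, which holds the inositol transporter Slc5a3, was higher at 1.34, and Sgk1, a kinase induced by osmotic stress, at 0.68, a call lost with no variance shared across genes (adjusted p = 0.149). Nfat5, the transcription factor of the response to hypertonicity and a regulator of Aqp2 in kidney, was at 14.0 and 15.2 FPKM on average (0.13, limma adjusted p = 0.413). Without the first laminin-negative library the Nfat5 difference was 0.33 (adjusted p = 0.021), and without the second it was -0.08 (adjusted p = 0.523).

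Glycerol genes stood beside aquaglyceroporins that were at or near 0. Of 12 tested, 3 were higher, 2 lower and 7 not called (median 0.07). Gk, glycerol kinase, was at 1.77 and 1.69 FPKM against 7.10 and 7.52 FPKM in laminin-positive cells (1.61, limma adjusted p = 4.39e-07), and Gpd1l was higher at 0.91. Pgp, which makes glycerol from its phosphate, was lower at -0.71 (adjusted p = 0.0985 with no variance shared across genes), and Gpam, which acylates glycerol phosphate, at -0.59. Of 8 tested genes for urea, ammonia, carbon dioxide and bicarbonate, 4 were higher, 1 lower and 3 not called (median 0.39), and 2 were lower without the first laminin-negative library. Car14, a membrane carbonic anhydrase, was at 1.88 and 2.33 FPKM against 59.7 and 58.2 FPKM (4.27, adjusted p = 1.64e-10), a 28.0-fold difference opposite to that of Aqp2. The bicarbonate transporters Slc4a3 and Slc4a4 were higher at 0.95 and lower at -1.02.

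Summed Leydig, fibroblast and adipocyte markers were lower in laminin-positive cells, like Aqp2, while summed smooth muscle, macrophage and Sertoli markers were higher. The part of these cell types in the aquaporin differences was not tested. All 10 Leydig cell markers were lower in laminin-positive cells, with summed levels of 4995 to 5254 FPKM in laminin-negative and 258 to 318 FPKM in laminin-positive libraries. The row Insl3,Jak3 was the largest part of this sum in every library, at 4080 and 3822 against 126 and 87.0 FPKM. All 10 fibroblast markers were lower as well, at 6258 to 6530 against 1994 to 2071 FPKM. Col1a1 was the largest part of that sum, at 2743 and 2596 against 1536 and 1421 FPKM. All 10 smooth muscle and peritubular markers were higher, at 220 to 240 against 5942 to 6040 FPKM. Acta2 was the largest part there, at 97.4 and 91.5 against 3598 and 3609 FPKM. Among the 5 adipocyte markers tested, of 10 listed, 4 were lower and 1 higher. The list summed to 51.8 to 53.8 against 15.2 to 15.6 FPKM, with Lep and Retn at 0. Most of each sum was Plin1, at 41.9 and 40.1 against 11.7 and 10.8 FPKM. Macrophage markers were higher for all 8 tested of 10 listed, at 5.10 to 8.12 against 46.9 to 54.6 FPKM. Most of these 8 passed the minimum only through the laminin-positive libraries. Sertoli cell markers were higher for 5 of the 8 tested, of 10 listed, at 89.8 to 97.4 against 179 to 194 FPKM. The largest part of the Sertoli sum was Aard, at 51.8 and 49.0 against 100 and 104 FPKM. Germ cell markers were higher for 8 of 10 and lower for 1, at 51.4 to 53.0 against 35.0 to 35.1 FPKM, a fall carried by Kit at 38.0 against 2.11 FPKM. The marker counts here and in the next paragraph are to be read beside the 26.6% higher and 26.3% lower among all tested genes. Some markers passed the minimum only through the population where they were higher, so these counts are not read further.

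Markers of cell types that carry aquaporins elsewhere gave mixed values. The endothelial sum, 175 to 183 against 26.0 to 27.6 FPKM, was almost all Cdh5 (165 and 173 FPKM against 9.89 and 9.25), while Pecam1 was at 0.126 and 0.141 against 0.869 and 0.615 FPKM and Tie1 was listed at 0 in laminin-negative cells. Of the 5 endothelial markers tested, of 10 listed, 2 were higher and 2 lower. Erythroid markers summed to 2.46 to 2.76 against 1.07 to 2.06 FPKM. Only 1 of the 9 was tested, and it was lower, while Slc4a1 and Tspo2 were at 0 in every library. Duct epithelium markers summed to 4.05 to 4.39 against 4.75 to 7.12 FPKM, with Krt19 at 0. Of the 3 tested, of 12 listed, 2 were higher and 1 lower. Egfl7, an endothelial marker, was at 5.23 and 3.86 FPKM in laminin-negative cells and at 5.28 and 4.53 FPKM in laminin-positive cells. Unlike Aqp1 and Aqp5, Egfl7 did not pass limma's test (0.10, adjusted p = 0.565). The part of these cell types in the aquaporin differences was not tested either.

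**Figure D5:**
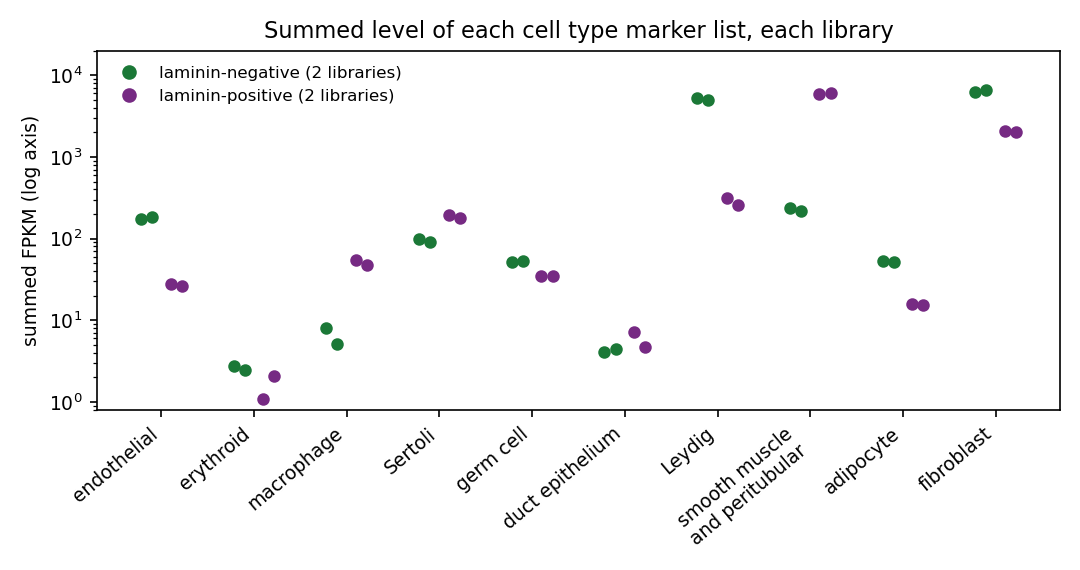
Summed FPKM of 10 cell type marker lists in each library, on a log axis, 1 point per library. Leydig and fibroblast sums are higher in the laminin-negative libraries, smooth muscle and macrophage sums are higher in the laminin-positive libraries, and the erythroid and duct epithelium sums stay below 10 FPKM.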

How the data were processed

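The deposited values are FPKM per gene and library, per the file headers, in 1 table of 22802 rows. TopHat2 2.1.1 and Cufflinks 2.2.1 are listed, with no role, per the submitters' processing notes. For the genome build, annotation, strand setting and library scaling, nothing was given in the sources used here. Of 21203 symbols compared with GENCODE M21 on GRCm38, 99.6% had overlapping loci. Genes with at least 1 FPKM in at least 2 libraries (12348) were fitted with limma 3.58.1 in R 4.3.3 on log2(FPKM + 1). A fold on this scale understates low genes. Tests were two-sided, with an intensity trend and Benjamini-Hochberg adjustment over all of these genes. Limma shared variance across genes. The shared variance weighed 8.21 degrees of freedom (median), against 2 from a gene's own libraries. Promoters came from RefSeq (GRCm38.p6).

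The members and gene lists were chosen with earlier results of these data known. The text names all members with Aqp12 and Mip, the 3 genes on each side of Aqp2 in the order of differences, the 2 nearest tested protein-coding neighbours on each side of each tested member, marker genes at 0 in every library, and per list the 2 largest called rises and falls plus Avpr2, Avpr1a, Adcy6, Prkaca and Nfat5. Genes outside this rule (Faim2, Scnn1g, Kcnj1, Fxyd4, Cdh5, Pecam1, Tie1, Egfl7, Kit, Plin1, Col1a1, Acta2, Aard and those only in the plot of genes around Aqp2) were chosen after their values were seen. Alternatives changed the pseudocount, filter, trend, scaling, replicate block, variance sharing and libraries.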

Additional observations from a re-analysis of the deposited data

How the results depend on the processing

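Aqp1 and Aqp5 were lower in laminin-positive cells under all 14 alternatives, but both passed the filter only through the laminin-negative libraries. In the fit with no filter their limma adjusted p-values were 1.28e-04 and 3.42e-04. With the filter kept and no variance shared across genes they were larger, at 0.0246 and 0.0358. Aqp2, given without a test, ran from -5.14 to -4.45, and moved beyond its spread with a pseudocount of 0.1 (-5.07) or 0.01 (-5.14). Aqp11 lost its call with a pseudocount of 0.01 (adjusted p 0.0502), with no filter (0.154), with a filter of 0.1 FPKM (0.0733), with no trend (0.0531), with no variance shared across genes (0.371) and without 2 of the libraries.

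With no variance shared across genes, 1346 genes passed as higher and 1211 as lower in laminin-positive cells. In that setting 7 vasopressin and cAMP genes were higher, 3 trafficking genes higher and 3 lower, 1 collecting duct gene lower, 2 cell volume genes higher and 2 lower, 1 glycerol gene lower and 2 urea and bicarbonate genes higher. Ptger3, Sgk1, Pgp, Ggct, Lsm5 and Nckap5l lost their calls there. This setting leaves 2 residual degrees of freedom per gene. Equal FPKM sums, which moved the median difference of all genes to 0.12, gave 4273 genes higher and 2371 lower, and 1 collecting duct gene lower. With no filter or a filter of 0.1 FPKM, 2 urea and bicarbonate genes were lower. Leaving out a library gave 5 to 8 trafficking genes higher and 1 to 2 urea and bicarbonate genes lower.

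Signs of small differences changed with equal sums for Prkaca (0.02), Gars (0.11) and Pak1 (0.06) and with quantile normalization for Gars (0.01) and Clns1a (-0.01). Leaving out a library moved Gars from -0.03 to 0.01, Clns1a from -0.03 to 0.07, Adcy6 from -0.04 to 0.31, Nfat5 from -0.08 to 0.33, Racgap1 from -0.00 to 0.28 and Pak1 from -0.13 to 0.07. The cause of these changes was not tested. Same-numbered libraries did not deviate together (r = 0.008 across genes over 2 pairs), so the numbers were not taken to pair the samples. With the replicate block 3376 genes were higher and 3343 lower, and Aqp11 had an adjusted p of 0.00983. Low values limit what can be seen: below about 0.1 FPKM an aquaporin rests on a few estimated fragments.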
